A study of Mus musculus with 2 samples.

Results

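The nuclei described here are shallow nuclei of the mouse vagus nerve ganglia with a high share of *Cntn5*, *Lingo2*, *Unc5d* and *Hs3st4* transcripts. They were taken where a nucleus had fewer than 4000 unique molecular identifiers (UMIs, 1 per captured RNA molecule), at least 6 UMIs summed over these 4 genes, and at least 25 of them per 10000 UMIs. Of 8714 nuclei, 317 met this rule, 111 of 3791 in the female library (2.93%, 95% exact binomial interval 2.41 to 3.52) and 206 of 4923 in the male library (4.18%, 3.64 to 4.78). The members were thus selected on the measured counts of the 4 genes and on depth, so these values describe them and were not tested. The working label of these nuclei was neuron-like. Of the members, 192 (60.6%) were nearest to the profile of deeper nuclei with the same 4 genes and 125 (39.4%) were nearest to the profile of another class, as described below, so they are called shallow *Cntn5*/*Lingo2* nuclei here.

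Single-nucleus RNA was sequenced in 1 library for 7 female mice, with 14 ganglia pooled, and in 1 library for 8 male mice, with 16 ganglia pooled. All mice were of the strain C57BL/6J with the genotype Rosa26-floxed-STOP-Cas9-eGFP, ate a standard chow diet, and had received AAVrg-Cre in the liver 4 weeks earlier. AAVrg-Cre is an adeno-associated virus of the retrograde serotype with a Cre gene, whose product removes the STOP cassette in the cells that it reaches. Both pools carried the same allele and virus, and mice of this line were bought at 8 to 9 weeks of age. As each sex was 1 library of pooled animals, sex and library cannot be told apart, nuclei are not replicates, and no p-value is given. Intervals are 95% intervals that cover counting error only, except for the number of genes per nucleus, where they are described below.

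Vagal sensory neurons have their cell bodies in the nodose and jugular ganglia, wrapped by satellite glia, and send axons to the viscera and the brainstem. Nodose neurons derive from placodes, whereas jugular neurons derive from the neural crest and many make the peptide CGRP, encoded by *Calca*. *Cntn5* encodes contactin 5, a cell adhesion molecule of the immunoglobulin superfamily anchored to the membrane. *Lingo2* encodes a transmembrane protein with leucine-rich repeats, *Unc5d* a netrin receptor, and *Hs3st4* an enzyme that adds sulfate to heparan sulfate chains. A library of nuclei also holds RNA released from the cytoplasm of lysed cells, which is captured together with each nucleus.

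The female library held 17435300 UMIs and the male library 27529730. The members held 259934 and 554767 of these UMIs, 1.49% and 2.02%. Members had 993 to 3984 UMIs (median 2261) in the female and 1026 to 3993 (median 2687) in the male library. The deep nuclei with the same marker level, at least 25 per 10000, and at least 5000 UMIs numbered 201 in the female library, where their median depth was 14967 UMIs, and 503 in the male, where it was 13520. In the female library 20 nuclei, 1 of them a member, had no more than 1000 UMIs, although the stated filter kept nuclei above 1000. The libraries shared 8 barcodes, none of them of a member. For the comparisons below, 1000 UMIs were drawn at random from every nucleus, so that the 1 female member with fewer had to be left out.

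Sex-linked genes followed the labels in the members. The 111 female members held 125 UMIs of *Xist*, the RNA that silences an X chromosome, and the 206 male members held 0. The Y-linked genes *Ddx3y*, *Uty*, *Kdm5d* and *Eif2s3y* had 30, 69, 15 and 57 UMIs in the male members and 0 in the female members. A count of 0 allows up to 0.115 UMIs per 10000 in the female and 0.0541 in the male members (3 UMIs of the total).

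The plot of depth shows where the limits of 4000 and 5000 UMIs fall among nuclei of this marker level. In the female library 335 nuclei reached 25 marker UMIs per 10000 and 33.1% of them were members. In the male library 780 reached it and 26.4% were members. Another 16 female and 60 male nuclei of this level had 4000 to 5000 UMIs, and 7 female and 11 male nuclei reached the level with fewer than 6 marker UMIs. Among all nuclei under 4000 UMIs, the share of members was 3.90% (female) and 6.08% (male).

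**Figure D1:**
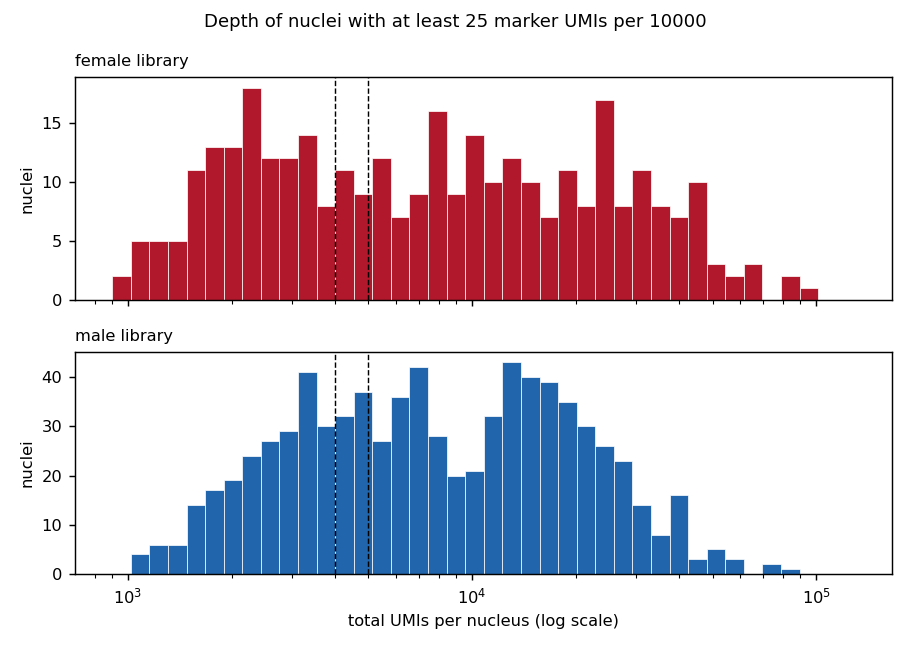
Number of nuclei (y axis) by total UMIs per nucleus (x axis, log scale) among all nuclei with at least 25 marker UMIs per 10000, in the female (upper) and male (lower) library; dashed lines mark 4000 and 5000 UMIs. Members lie left of the 4000 line, deep nuclei right of the 5000 line, and the nuclei form a continuous range of depth across both lines.

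Values near the limits were continuous. The deepest members had 3993 and 3988 UMIs in the male and 3984 in the female library, and the nearest nuclei outside had 4006 and 4015 in the male and 4021 in the female library. The lowest marker levels inside were 25.4 per 10000 (male), 25.4 and 25.5 (female). Among the other nuclei under 4000 UMIs, the highest levels below 25 were 24.8 (female) and 24.9 (male). There were 18 members with exactly 6 marker UMIs and 10 further nuclei with 5. A level under 40 was found in 76 members, 292 shallow nuclei had a level of 10 to 25, and 4106 of the 6234 nuclei under 4000 UMIs (65.9%) had no marker UMI.

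The members differed widely in the genes that selected them. The marker level per nucleus had a median of 69.8 per 10000 in the female and 68.9 in the male members, and reached 1659 and 1236. All 4 genes were found in 10 female and 14 male members, whereas 37 female and 48 male members (33.3% and 23.3%) held UMIs of a single one. *Cntn5* ranged from 0 to 1659 per 10000 (median 28.8) in female and from 0 to 1219 (median 18.0) in male members, and it was at 0 in 22 and 54 of them. *Lingo2* ranged from 0 to 494 (median 14.0) and from 0 to 334 (median 23.2), and was at 0 in 32 and 41. *Unc5d* and *Hs3st4* had a median of 0 in both libraries. They were at 0 in 81 and 73 female and in 134 and 141 male members.

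All 4 genes are long. On mm10, *Cntn5* (ENSMUSG00000039488) spans chr9:9660891-10904775 on the minus strand, 1243885 bases, and *Lingo2* (ENSMUSG00000045083) spans chr4:35706647-36951747 on the minus strand, 1245101 bases. *Unc5d* (ENSMUSG00000063626) lies at chr8:28646717-29219636 on the minus strand and *Hs3st4* (ENSMUSG00000078591) at chr7:123982869-124398989 on the plus strand. Reads in introns were counted, and the files do not separate them from reads in exons.

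At 1000 UMIs per nucleus the 4 genes were as high in members as in the deep nuclei or higher, which the rule fixes in part. The level of *Cntn5* was 89.6 per 10000 (84.1 to 95.4) in female and 62.6 (59.2 to 66.1) in male members. In deep nuclei it was 61.1 and 50.8, in other nuclei under 4000 UMIs 0.798 and 0.974, and in macrophage rule nuclei 0.515 and 0.476. The last are shallow nuclei with fewer than 25 UMIs of the 4 genes per 10000. They have at least 6 UMIs and 25 per 10000 of 10 macrophage genes and of no other class. There were 97 female and 63 male ones, with median depths of 1754 and 1790 UMIs. As macrophages should lack neuronal transcripts, the level in these nuclei is taken as background. For the 4 genes themselves that level is capped by the limit of 25, which also leaves out shallow macrophage nuclei above it. Whether free RNA or doublets gave this level was not tested. The level of *Lingo2* was 30.7 and 37.4 in members, 25.8 and 22.2 in deep nuclei, and 0.619 and 0.476 in macrophage rule nuclei. Deep nuclei below the marker level still held *Lingo2* at 4.63 and 6.25, with UMIs in 26.4% and 35.7% of them, and *Cntn5* at 1.30 and 1.20. *Unc5d* was at 4.73 and 4.32 in members and at 4.38 and 4.21 in deep nuclei. *Hs3st4* was at 5.09 and 5.15 in members and at 4.43 and 3.52 in deep nuclei.

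**Figure D2:**
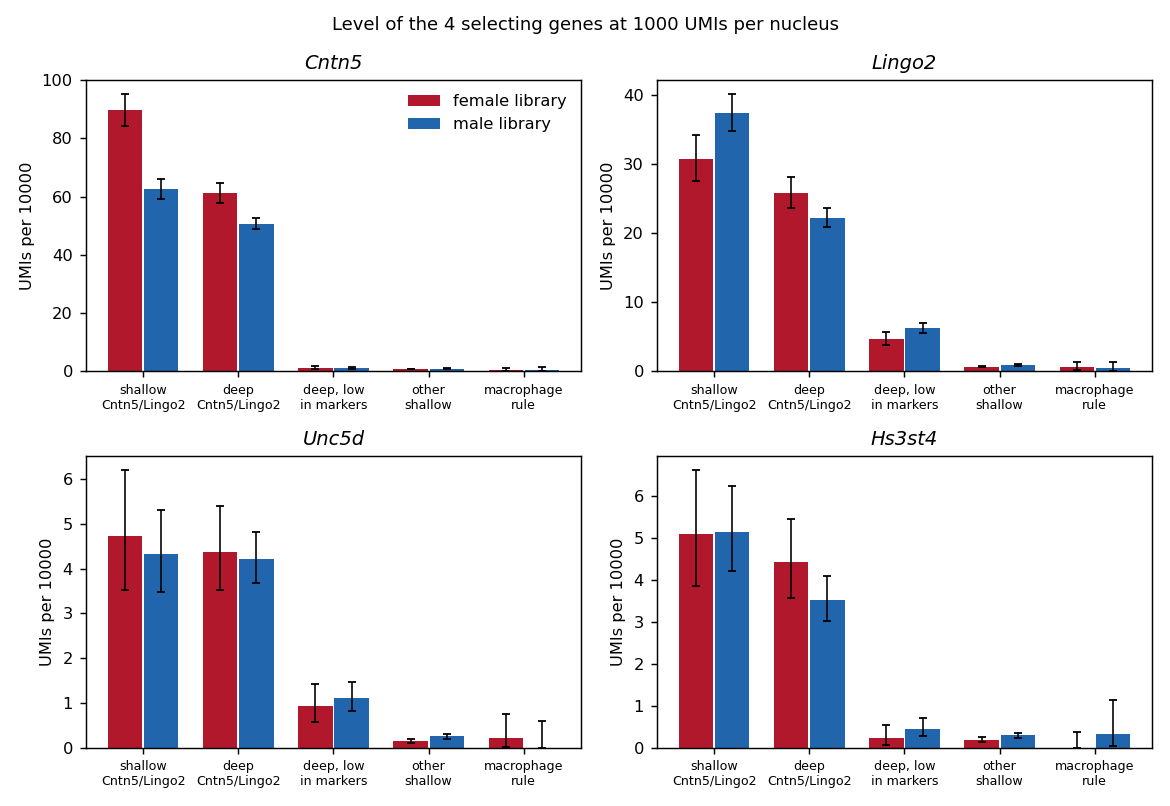
Level of each of the 4 selecting genes (UMIs per 10000, nuclei thinned to 1000 UMIs, y axis from 0) in members, deep nuclei of the same marker level, deep nuclei below that level and of no other class, other nuclei under 4000 UMIs and macrophage rule nuclei; red bars are the female and blue bars the male library, with 95% Poisson intervals. Members and deep nuclei stand above the other groups for each gene, by the rule that chose them.

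A minimum of 6 marker UMIs keeps out shallow nuclei with a level near the limit. When deep nuclei were thinned to depths drawn from the members of their library, 84.1% (female) and 88.5% (male) met the rule again. The mean level of those was 102 and 88.1 per 10000, above the 86.6 and 79.4 of all deep nuclei and below the 120.5 and 107.6 of the members.

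The label neuron-like was checked against other neuronal genes, which the rule did not use. Several transcripts known from neurons were well above background in the members. *Meg3*, a noncoding RNA abundant in neuronal nuclei, was found in 90.9% of female and 92.2% of male members at 1000 UMIs, against 13.4% and 19.0% of macrophage rule nuclei. *Snhg11*, another noncoding RNA of neuronal nuclei, was found in 85.5% and 80.1% of members against 7.22% and 15.9%. *Kcnb2*, which encodes a delayed rectifier potassium channel, was found in 59.1% and 58.7% of members against 12.4% and 22.2%. *Elavl4*, which encodes a neuronal RNA-binding protein, was found in 48.2% and 47.6% against 12.4% and 19.0%. Each of these shares was lower in members than in deep nuclei, where *Meg3* reached 99.5% and 96.4% and *Kcnb2* 81.6% and 77.7%. All of them were compared at the same 1000 UMIs. As sequenced, the median depths were 2261 and 2687 UMIs in members and 1754 and 1790 in macrophage rule nuclei.

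*Tubb3* and *Uchl1* of the pan-neuronal list did not tell the members apart. *Tubb3*, which encodes neuronal beta-tubulin, was found in 46.4% of female and 78.6% of male members and in 45.4% and 77.8% of macrophage rule nuclei. *Uchl1*, which encodes a neuronal deubiquitinase, was found in 53.6% and 73.3% of members and in 48.5% and 79.4% of macrophage rule nuclei. The intervals of both groups overlapped for each gene and library, so no expression in members is read from these shares. *Snap25*, of the vesicle fusion machinery, did differ, at 65.5% and 60.2% of members against 17.5% and 30.2%. Marker lists of other neuron types were low but not all at 0. At 1000 UMIs the inhibitory list was at 0.182 and 0.0485 per 10000 in members and the cholinergic motor neuron list at 0.455 and 0.340, the latter in *Slc5a7* alone. The cortical excitatory list was at 2.09 and 2.52, beside 2.64 in deep nuclei of each library, and most of it was *Camk2a*, a kinase found in many neurons. The sympathetic list is given with the comparison of the sexes. *Gad2* and *Slc32a1* of inhibitory neurons, *Chat*, *Slc18a3* and *Mnx1* of cholinergic motor neurons, and *Neurod6* and *Tbr1* of cortical excitatory neurons had 0 UMIs in all 317 members as sequenced.

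When each member was assigned to the class profile of highest likelihood, with the 4 genes left out, 80 of 111 female members (72.1%, 62.8 to 80.2) and 112 of 206 male members (54.4%, 47.3 to 61.3) were nearest to the deep nuclei. Satellite glia took 19 female (17.1%) and 77 male (37.4%) members, 96 in all (30.3%). The profile of sympathetic neurons took 10 male members (4.85%) and no female one, beside 7.16% and 1.49% of male and female deep nuclei at the depths of members, and each of the other classes took at most 4 members. Deep nuclei thinned to the depths of members, and assigned with profiles made without them, went to the profile of deep nuclei in 88.1% of female and 82.1% of male nuclei and to satellite glia in 7.96% and 8.95%. With a profile of deep nuclei low in the 4 genes added, 65.8% and 50% of members were nearest to the deep *Cntn5*/*Lingo2* nuclei and 8.11% and 4.85% to the added profile. By the rule used for classes, at least 6 UMIs and 25 per 10000 of its genes, 52 members (16.4%) met another class too. They were 22 female (19.8%) and 30 male (14.6%), beside 11.4% and 13.7% of deep nuclei. The myelinating Schwann cell list was met by 7 female and 11 male members, the satellite glia list by 5 and 17, and the fibroblast list by none.

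Members nearest to the deep profile and members nearest to satellite glia were set side by side on the 4 genes. The assignment had not used these genes, but the rule for members had. The marker level was 130 per 10000 (female) and 123 (male) in the 80 and 112 members nearest to the deep profile. It was 140 and 95.5 in the 19 and 77 nearest to satellite glia, and 116 and 86.5 in the 12 and 17 nearest to any other profile. The intervals of these levels overlapped in the female library, and the levels were lower outside the deep profile in the male library. As the rule set a lowest level for every member, these values are a description and were not tested. Members nearest to satellite glia were shallower, with median depths of 1896 and 2335 UMIs against 2390 and 2999. The genes that made the assignment differed with it by construction. The satellite glia list, for example, was at 14.4 and 20.9 per 10000 in members nearest to satellite glia and at 10.1 and 8.30 in members nearest to the deep profile, and the neuronal adhesion and guidance list was at 217 and 187 against 326 and 284. In macrophage rule nuclei the satellite glia list was at 12.1 and 13.7 and the adhesion list at 29.3 and 27.5. The pan-neuronal list was at 98.3 and 127 in members nearest to satellite glia and at 102 and 121 in those nearest to the deep profile. Whether members nearest to satellite glia are satellite glia was not tested.

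Members were divided by which of *Cntn5* and *Lingo2*, genes of nearly the same length, had more UMIs. *Cntn5* had more UMIs than *Lingo2* in 67 female members (60.4%, 50.6 to 69.5) and 93 male members (45.1%, 38.2 to 52.2), and *Lingo2* had more in 38 and 106. Ties made up the other 6 and 7. The levels of these genes on each side are set by the division and by the rule and are given as a description. In *Cntn5*-led members the level of *Cntn5* was 126 and 130 per 10000 and that of *Lingo2* 9.78 and 9.90, whereas in *Lingo2*-led members *Cntn5* was at 9.44 and 5.96 and *Lingo2* at 66.2 and 61.9. In deep nuclei the share led by *Cntn5* was 54.7% and 54.5% as sequenced. At 1000 UMIs it was 57.3% and 44.7% in members and 46.3% and 51.1% in deep nuclei, where 93 female nuclei were led by each gene.

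Genes that differed along this split in the deep nuclei were followed in the members. As the rule makes a member low in one of the 4 genes high in another, and the split uses genes of the rule, the values are a description. Of 920 genes with enough UMIs in the members, 5 (0.543%) were higher by at least 2-fold in *Cntn5*-led members of both libraries and 14 (1.52%) were higher in *Lingo2*-led members. In deep nuclei 35 of 2051 genes were at least 2-fold higher in *Lingo2*-led nuclei of both libraries. Of these, 13 could be compared in the members, all 13 were higher in *Lingo2*-led members of both libraries, and 3 passed 2-fold in both. Their median log2 ratio of *Cntn5*-led over *Lingo2*-led members was −1.39 (female) and −1.15 (male), beside 0.030 and 0.014 over the 920 genes. *Hs6st3*, which encodes another heparan sulfate sulfotransferase, was at 2.69 per 10000 in *Cntn5*-led and 6.84 in *Lingo2*-led female members, and at 1.40 and 4.91 in male members. *Gpc5*, a glypican that carries heparan sulfate, had too few UMIs to be among the 13 and was at 0.896 and 2.89 in female and at 0.645 and 2.26 in male members. *Opcml*, an adhesion molecule, was at 1.04 and 5.79 in female members but at 2.15 and 2.64 in male members, where the interval of the ratio included 0 on the log2 scale.

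On the side of *Cntn5* the deep nuclei gave 7 genes, of which 2 could be compared in the members. These, *Dgki* and *Slc8a1*, had higher levels in *Cntn5*-led members of both libraries and neither passed 2-fold in both. The interval of the log2 ratio included 0 for *Slc8a1* in both libraries and for *Dgki* in the female one. Among the other 5, *Cux2* went the other way in both libraries and *Me1* in the female library, on few UMIs. *Dgki*, a diacylglycerol kinase, was at 16.7 per 10000 in *Cntn5*-led and 14.2 in *Lingo2*-led female members and at 16.1 and 10.5 in male members. *Pde4d*, a phosphodiesterase that breaks down cyclic AMP, was just short of 2-fold in the male deep nuclei. It was at 25.5 and 7.11 per 10000 in female and at 13.2 and 9.53 in male members. Of the 10 genes with the strongest split on each side in deep nuclei, the direction was the same in both libraries of members for 10 of the *Lingo2* side and 7 of the *Cntn5* side. These included *Cntn4*, *Pcdh7*, *Grm8* and *Grik1* on the side of *Lingo2* and *Slc8a1*, *Rgs9* and *Antxr2* on the side of *Cntn5*, most of them with few UMIs. The share of all compared genes with the same direction in both libraries of members was not counted for this split. The counts of shared direction are therefore a description.

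At equal depth, with all members, the interval of the difference between members and deep nuclei in the number of genes per nucleus reached or included 0 in both libraries. At 1000 UMIs the median number of genes was 667 (654 to 688) in female members and 697 (688 to 704) in female deep nuclei, a difference of −30 with bounds of −50 to 0. With 750 UMIs per nucleus it was −20 (−37 to 2), and with nuclei of another class left out −32 (−60 to −3). The median was 707 (699 to 717) in male members and 711 (704 to 716) in male deep nuclei, a difference of −4 (−17 to 13). With only the members nearest to the deep profile the differences were −44 (−70 to −21) and −25.5 (−37 to −9). Other shallow nuclei had 742 and 765 genes and macrophage rule nuclei 781 and 796. As sequenced, members had a median of 1257 and 1529.5 genes and deep nuclei 4716 and 4593.

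Few single genes differed between members and deep nuclei at equal depth. Of 3268 genes with at least 20 UMIs over both groups in each library, 42 (1.29%) were higher in members by at least 2-fold in both libraries and 10 (0.306%) were lower. The median log2 ratio of all 3268 was 0.0030 (female) and −0.023 (male). Among the 42 higher genes were 6 mitochondrially encoded genes and 11 genes of cytoplasmic ribosomal proteins. Another random thinning called 58 higher and 12 lower genes and shared 20 of the 42 and 3 of the 10. Without thinning 296 genes were higher and 136 lower of 12741, and 30 and 4 were shared. With only the members nearest to the deep profile, which were picked on these same genes, 16 were higher and 17 lower of 2954, and 14 and 4 were shared. All 42 and all 10 kept their direction in both libraries under the 7 alternative settings tried, and 8 and 2 kept 2-fold in each of them.

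**Figure D3:**
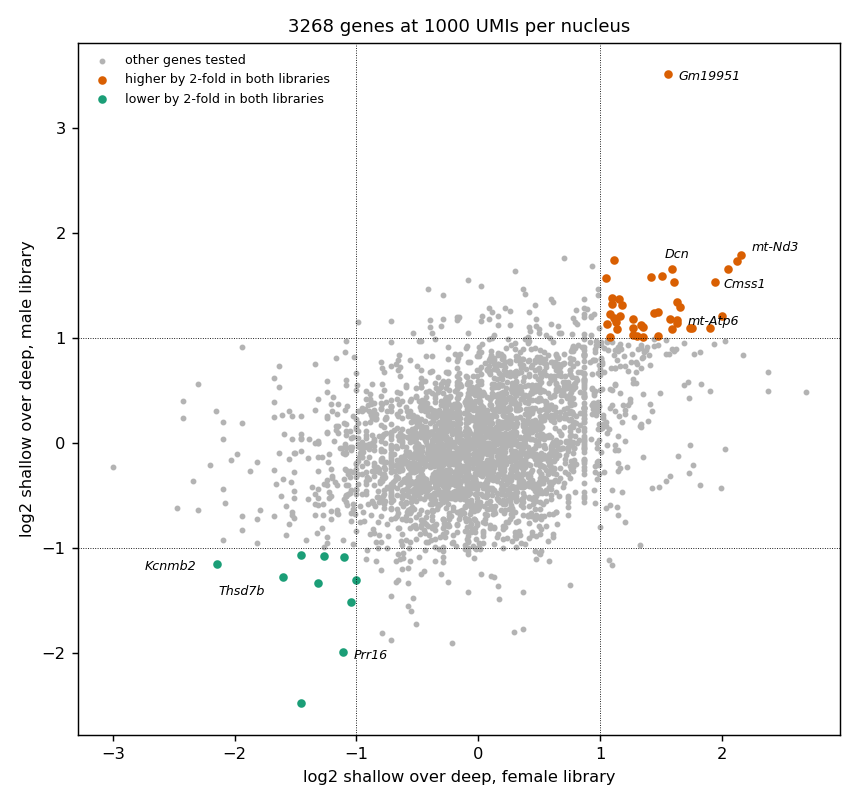
Log2 ratio of members over deep nuclei at 1000 UMIs per nucleus for 3268 genes, in the female library (x axis) and the male library (y axis); dotted lines mark 2-fold, orange points are the 42 genes higher and green points the 10 genes lower by 2-fold in both libraries. Most genes lie within 2-fold, with medians of 0.0030 and −0.023.

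Mitochondrial transcripts were among the most abundant of the higher genes. *mt-Co2*, which encodes a subunit of cytochrome c oxidase, was at 23.2 per 10000 in female and 17.6 in male members against 7.46 and 6.92 in deep nuclei (log2 1.63, 1.34 to 1.94, and 1.35, 1.13 to 1.57). *mt-Atp6*, a subunit of the ATP synthase, was at 33.7 and 25.7 against 10.7 and 10.5. *mt-Co3*, another subunit of cytochrome c oxidase, was at 35.9 and 32.1 against 12.9 and 13.5. *mt-Nd3*, a subunit of complex I, was at 4.27 and 3.59 against 0.945 and 1.03. All 13 mitochondrially encoded genes together made up 179 UMIs per 10000 (172 to 187) in female and 137 (132 to 142) in male members, against 62.8 and 63.2 in deep nuclei. Their level was 208 and 165 in the other shallow nuclei and 194 and 184 in macrophage rule nuclei.

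Some other genes of the 42 were also as high in unrelated shallow nuclei. *Cmss1* was at 16.3 per 10000 in female and 12.7 in male members, 4.23 and 4.37 in deep nuclei, and 16.5 and 20.5 in macrophage rule nuclei. *Camk1d*, a calcium/calmodulin-dependent kinase gene, was at 12.6 and 14.1 in members, 4.43 and 4.65 in deep nuclei, and 29.4 and 33.2 in macrophage rule nuclei. *AY036118*, a noncoding gene, was at 24.2 and 43.1 in members and at 9.05 and 14.4 in deep nuclei. It overlaps *Gm42418* on the opposite strand of chromosome 17, and no source used here says how reads were divided between them. *Dcn*, the fibroblast proteoglycan decorin, was at 2.73 and 2.96 in members and 0.896 and 0.934 in deep nuclei, beside 8.21 and 6.06 in other shallow nuclei. *Hbb-bs*, a beta-globin of red blood cells with a near-identical paralog, was at 1.91 and 2.14 in members and 0.448 and 0.676 in deep nuclei. The noncoding gene *Gm19951*, named after its values were seen because it stands apart in the plot of gene ratios, was at 1.64 and 1.46 in members and at 0.547 and 0.119 (11 and 6 UMIs) in deep nuclei. *Ubl5*, *Rps4x* and *Dbi* completed the 12 genes of strongest difference, in an order that left out *Gm42418* and *Gm19951*. The 42 genes summed to 474 and 450 per 10000 in members, 161 and 167 in deep nuclei, 531 and 587 in other shallow nuclei, and 519 and 654 in macrophage rule nuclei. The gap between members and deep nuclei in this sum follows from how the 42 were chosen.

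Lower genes had few UMIs in members, and their ratios are correspondingly wide. *Thsd7b*, a thrombospondin repeat gene, was at 0.455 per 10000 in female and 0.243 in male members (5 UMIs each) and at 1.49 and 0.636 in deep nuclei. *Kcnmb2*, a beta subunit of the calcium-activated BK potassium channel, was at 0.545 and 0.631 in members and at 2.59 and 1.45 in deep nuclei (log2 −2.14, −3.76 to −1.03, and −1.16, −2.18 to −0.34). *Prr16* was at 0.727 and 0.388 against 1.64 and 1.63. *Tafa2*, a secreted protein of the nervous system, was at 1.64 and 1.41 against 3.58 and 3.04, and *Gpr158*, an orphan receptor of neurons, was at 1.45 and 1.17 against 2.99 and 2.94. *Creb5*, *Eml4*, *Dach1*, *Dlg1* and *Ikzf2* were the other 5. *Rasa1* and *Slc9a7*, next in order, were just short of 2-fold in the male library. The 10 genes summed to 6.91 and 5.53 per 10000 in members, 17.8 and 14.1 in deep nuclei and 10.2 and 7.69 in other shallow nuclei, and here too the choice of genes fixes the gap to the deep nuclei.

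Gene length moved with the ratio. Of the 349 tested genes shorter than 10000 bases, 32 were among the 42 higher genes and none among the 10 lower, and their median log2 ratio was 0.65 (female) and 0.71 (male). Of the 664 genes longer than 200000 bases, 2 were higher and 8 lower, and their median was −0.15 and −0.23. Genes longer than 100000 bases held 42.1% and 36.6% of the UMIs of members, 46.7% and 42.7% of those of deep nuclei, and 37.2% and 30.5% of those of other shallow nuclei. The part of gene length in the differences was not tested.

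Gene lists gave the same picture over more UMIs. Of 32 lists of cell type markers and gene groups, 8 were higher in members in both libraries, in that the interval of the log2 ratio lay above 0, 4 were lower, and none went in opposite directions. Genes of cytoplasmic ribosomal proteins, which carry the machinery of translation and have many near-identical pseudogenes, were at 155 per 10000 (148 to 163) in female and 188 (182 to 194) in male members and at 78.5 and 99.7 in deep nuclei. Of its 84 genes 74 could be tested, with a median log2 ratio of 0.996 and 0.93, 11 higher and none lower. The list was at 165 and 220 in other shallow nuclei.

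The lists that were lower hold transcripts of long neuronal genes and of nuclear RNA. Neuronal adhesion and guidance genes were at 290 per 10000 (280 to 300) in female and 245 (238 to 252) in male members and at 380 and 333 in deep nuclei (log2 −0.39 and −0.45). None of its 33 tested genes passed 2-fold, and their median log2 ratio was −0.52 and −0.34. *Cntnap2*, which encodes an adhesion protein of the axon near nodes of Ranvier, was at 53.5 and 47.9 in members, 72.1 and 67.9 in deep nuclei, and 2.27 and 3.65 in macrophage rule nuclei. *Ctnna2*, a catenin of neurons, was at 36.7 and 35.5 in members and 56.1 and 50 in deep nuclei. *Csmd1* was nearly level in the female library at 51.5 and 52.0, and lower in male members at 32.5 against 42.0. In the other shallow nuclei *Cntnap2* was at 8.31 and 7.49 and *Ctnna2* at 5.37 and 4.94, far below the members, whereas *Csmd1* was at 23.2 and 22.2, nearer to the male members.

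Glutamate and GABA receptor genes were at 48.4 and 45.0 per 10000 in members and at 71.7 and 57.8 in deep nuclei (log2 −0.57 and −0.36). *Grm7*, a metabotropic glutamate receptor, was at 8.09 and 6.46 against 12.6 and 12.4, and *Gria4*, an AMPA receptor subunit, at 9.55 and 10.4 against 13.3 and 12. Voltage-gated channel genes were at 110 and 88.1 in members and 127 and 115 in deep nuclei (log2 −0.20 and −0.38), with 0 of 25 tested genes past 2-fold. *Kcnb2* was at 35.4 and 25.3 against 38.2 and 32.1, *Cacna1c*, an L-type calcium channel, at 8.45 and 7.38 against 12.8 and 10.0, and *Kcnq3*, a subunit of the M-current channel, at 6.55 and 7.23 against 8.21 and 8.73. Nuclear noncoding RNAs were at 639 and 623 in members and 886 and 876 in deep nuclei (log2 −0.47 and −0.49). *Malat1*, which stays in the nucleus, was at 543 and 534 against 756 and 768, and *Meg3* at 47.5 and 49.2 against 66.6 and 58.1.

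**Figure D4:**
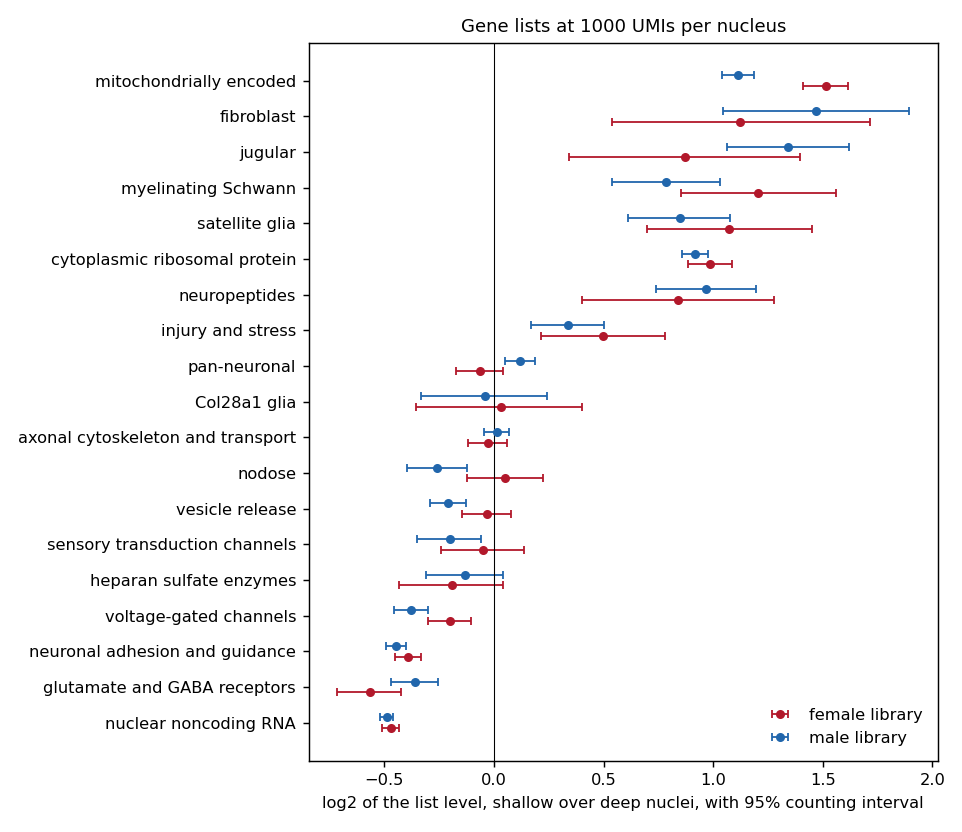
Log2 ratio of the summed level of a gene list in members over deep nuclei at 1000 UMIs per nucleus (x axis) for 19 of the 32 lists (y axis), with 95% counting intervals; red is the female and blue the male library. Mitochondrial, ribosomal protein, satellite glia, myelinating Schwann cell, fibroblast, jugular and peptide lists lie right of 0 in both libraries. Nuclear noncoding RNA, receptor, adhesion and voltage-gated channel lists lie left of it in both libraries.

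Lists of vagal neuron type gave a mixed result. The nodose list was at 38.5 and 29.2 per 10000 in members and at 37.1 and 34.9 in deep nuclei, level in the female library (log2 0.052, −0.12 to 0.23) and lower in the male (−0.26, −0.40 to −0.13). With only the members nearest to the deep profile it was higher in the female library (0.33, 0.15 to 0.51) and its interval included 0 in the male (−0.044, −0.21 to 0.12). Those members were picked on genes that include this list, so these 2 values follow in part from the pick. Members and deep nuclei were both above the other shallow nuclei, 12.8 in each library, and above macrophage rule nuclei at 7.63 and 10.6. *Negr1*, an adhesion molecule and the most abundant gene of the list, was at 22.5 and 14.9 in members and 23.7 and 20.4 in deep nuclei. *Ntrk2*, the receptor of brain-derived neurotrophic factor, was at 8.82 and 4.66 in members and at 6.52 and 5.96 in deep nuclei, higher in the one library and lower in the other. *Eya1*, a regulator of placode-derived neurons, was at 1.91 and 3.45 against 2.79 and 3.26. The jugular list was higher in members at 5.73 and 10.8 against 3.13 and 4.25, but it stood at 5.91 and 12.5 in other shallow nuclei and at 6.08 and 15.1 in macrophage rule nuclei. *Calca* was at 3.55 and 6.55 in members, 1.79 and 2.37 in deep nuclei, and 3.61 and 9.68 in macrophage rule nuclei. The neuropeptide list, which shares *Calca* and *Tac1* with it, was at 8.09 and 14.1 in members, 4.53 and 7.20 in deep nuclei, and 8.56 and 16.7 in macrophage rule nuclei. The levels of jugular and peptide genes in members thus did not exceed those in nuclei that should lack them.

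Except for the injury and stress list, the intervals of the other neuronal lists included 0 in at least 1 library, and some excluded it in the male library alone. The pan-neuronal list was at 96.6 and 123 per 10000 in members and at 101 and 114 in deep nuclei (male log2 0.12, 0.049 to 0.18), with 36.6 and 90.3 in macrophage rule nuclei, and its 20 genes had medians of −0.049 and −0.057 with none past 2-fold. Within it *Syt1*, the calcium sensor of synaptic vesicles, was at 8.27 and 10.5 against 12.6 and 11.5, whereas *Uchl1* was at 9 and 13.7 against 4.48 and 7.79. Genes of vesicle release were at 91.2 and 80.3 against 93.3 and 92.8 (male log2 −0.21, −0.29 to −0.13). Genes of the axonal cytoskeleton and transport were at 141 and 167 against 144 and 166, and at 63.7 and 142 in macrophage rule nuclei, with *Ank2* at 25.2 and 23.1 against 37.0 and 36.2 and *Tuba1a* at 12.4 and 21.3 against 7.91 and 12.1. Sensory transduction channels were at 32.1 and 25.4 against 33.2 and 29.2 (male log2 −0.20, −0.35 to −0.059), below the 36.8 (female) and 37.98 (male) of other shallow nuclei, among them *Piezo2*, the channel of mechanosensation, at 2.64 and 3.01 against 3.68 and 3.46, and *Asic2*, an acid-sensing channel, at 11.3 and 5.49 against 12 and 10.6. With 750 UMIs per nucleus the sensory transduction list was higher in female members (log2 0.24, 0.025 to 0.45). Its male interval then included 0 (−0.16, −0.33 to 0.0062). Heparan sulfate enzymes were at 19.8 and 17.7 against 22.7 and 19.4. The injury and stress list was higher in members at 17.0 and 21.5 against 12 and 17 in deep nuclei, but it stood at 14.3 and 24.9 in other shallow nuclei and at 14.5 and 24.1 in macrophage rule nuclei, so that male members lay between the deep and the other shallow nuclei. Of its chaperones, *Hspa8* was at 6.36 and 9.17 in members against 4.28 and 6.62 in deep nuclei and *Hsp90aa1* at 7 and 7.38 against 4.78 and 6.2. The regeneration gene *Sprr1a* and the immediate early gene *Fosb* had 0 UMIs in the members.

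The satellite glia, myelinating Schwann cell and fibroblast lists were higher in members than in deep nuclei and lower than in other shallow nuclei. The satellite glia list was at 11.7 (9.79 to 13.9) and 13 (11.5 to 14.7) per 10000 in members, 5.57 and 7.24 in deep nuclei, 22.6 and 25.8 in other shallow nuclei, and 12.1 and 13.7 in macrophage rule nuclei. Its female log2 ratio over deep nuclei was 1.07 (0.70 to 1.45), and 0.48 (0.13 to 0.83) with another random thinning. *Apoe*, its most abundant gene, was at 4.91 and 6.99 in members and 7.01 and 8.41 in macrophage rule nuclei, and *Fabp7*, which marks satellite glia more narrowly, was at 2.27 and 2.33 in members and 0.697 and 1.59 in deep nuclei. The myelinating Schwann cell list was at 14.0 and 11.3 in members, 6.07 and 6.56 in deep nuclei, 40 and 39.8 in other shallow nuclei, and 8.35 and 11.8 in macrophage rule nuclei. *Pmp22*, which encodes a peripheral myelin protein, was at 4.82 and 4.17 against 1.59 and 2.25 in deep nuclei, and *Mag* had 0 UMIs in members. The fibroblast list was at 5.09 and 4.95 in members, 2.34 and 1.79 in deep nuclei, and 7.01 and 7.30 in macrophage rule nuclei. The *Col28a1* glia list was level at 8.36 and 6.94 against 8.21 and 7.16.

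Lists of endothelial, mural, macrophage, adipocyte, barrier fibroblast and pituitary cells were at 0.534 to 2.18 per 10000 in members of either library. The oligodendrocyte and astrocyte lists were at no more than 0.485. The part of these other cells in the differences between members and deep nuclei was not tested beyond leaving out the nuclei that meet another class, or those nearest to another profile. The nearest profile was assigned on genes that include these lists, so the values that follow are in part set by that pick and are a description. With only the members nearest to the deep profile, the satellite glia list was higher in the female library (log2 0.86, 0.43 to 1.29) and its interval included 0 in the male library (0.20, −0.15 to 0.53). The fibroblast list remained higher in both libraries (0.99, 0.32 to 1.64, and 1.21, 0.65 to 1.73). The mitochondrial (1.40 and 0.88) and ribosomal protein (0.91 and 0.68) lists also remained higher, and the adhesion list (−0.22 and −0.23) remained lower. The intervals of 3 further lists came to include 0 in 1 library, voltage-gated channels in the female (−0.047, −0.16 to 0.059), and myelinating Schwann cells (0.15, −0.23 to 0.50) and injury and stress (0.18, −0.047 to 0.39) in the male.

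These lists changed with depth across the limits, and the mitochondrial and ribosomal protein lists did so among the members and among the deep nuclei as well. From female members of 1500 to 2000 UMIs to female deep nuclei of at least 20000, all thinned to 1000, the mitochondrial list went from 202 to 38 per 10000. In the male library it went from 153 to 51.1. Nuclei of 3000 to 4000 UMIs were at 160 and 123, and deep nuclei of 5000 to 10000 UMIs at 96.0 and 83.2. The adhesion list went from 268 to 388 in the female and from 187 to 344 in the male library between the same ends, with 309 and 263 at 3000 to 4000 UMIs and 374 and 305 at 5000 to 10000. Nuclear noncoding RNAs went from 621 to 944 and from 528 to 904. Ribosomal protein genes went from 171 to 61.9 in the female and from 227 to 80 in the male library. Female and male nuclei under 1500 UMIs (15 and 12) and female nuclei of 4000 to 5000 UMIs (16) were classes of fewer than 20 nuclei, and no value above rests on them.

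**Figure D5:**
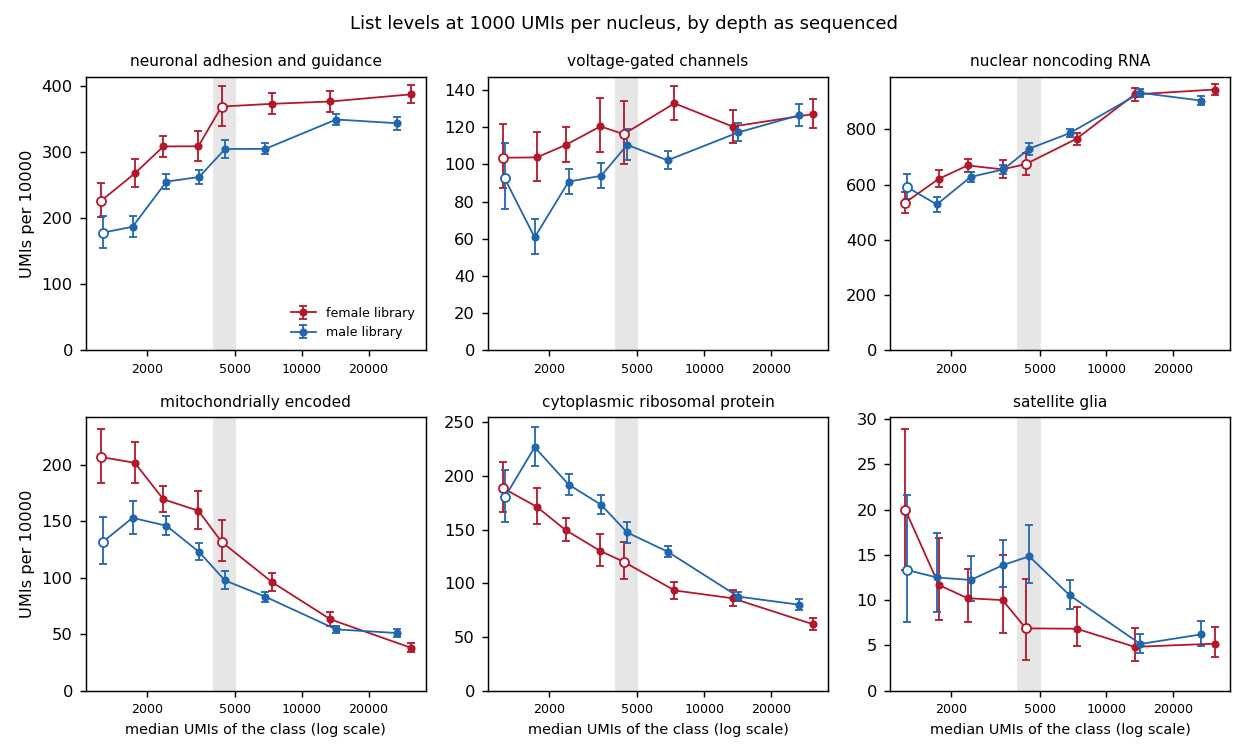
Level of 6 gene lists (UMIs per 10000, nuclei thinned to 1000 UMIs, y axes from 0) against the median UMIs of each depth class before thinning (x axis, log scale), among nuclei with the marker level; points carry 95% Poisson intervals, open points are classes of fewer than 20 nuclei, and the grey band marks 4000 to 5000 UMIs. Mitochondrial and ribosomal protein transcripts were lower and nuclear noncoding RNA and adhesion transcripts higher in the deepest class than in the shallowest one, in both libraries.

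The nuclei within each group also varied. As sequenced, the adhesion list ranged from 21.9 to 1080 per 10000 (median 253.5) in female members and from 34.9 to 818 (median 205) in male members, and from 110 to 1130 (median 345) and 32.4 to 934 (median 313) in deep nuclei. The highest values of members and deep nuclei were thus near each other. The lower quartile of deep nuclei, 262 and 242.5, lay above the median of the members. The lower quartile of members was 149 and 132, and the upper quartile of the other shallow nuclei was 232.5 and 156.

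Male and female members were compared as 1 library with 1 library, so that this size rule had to be met a single time. Of 3464 genes with at least 20 UMIs over both, 241 (6.96%) were at least 2-fold higher in male and 141 (4.07%) at least 2-fold higher in female members. The genes of noradrenaline stood out. *Dbh*, which encodes the enzyme that makes noradrenaline, had 43 UMIs in the male members and 0 in the female members, at least 7.65-fold higher with the female value set at 3 UMIs. *Slc6a2*, the noradrenaline transporter, was at 2.14 per 10000 in male and 0.182 in female members. The same difference was seen in other nuclei, as *Dbh* was at 1.64 and 0.126 in male and female shallow nuclei outside the members. The sympathetic neuron list was at 5.78 in male and 0.636 in female members, 5.37 and 0.694 in other shallow nuclei, and 5.24 and 0.825 in macrophage rule nuclei.

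Among the other genes higher in male members, *Ndufb3*, a subunit of complex I, was at 2.57 per 10000 against 0.455 and *Srp14*, of the signal recognition particle, at 3.40 against 0.727. *Lrrtm4*, a postsynaptic adhesion protein, was at 2.86 against 0.636, and *Fbxl7* at 1.75 against 0.364. Higher in female members were *Kcnh8*, a potassium channel gene, at 2.91 against 0.777, *Kcnd2*, of the A-type potassium current, at 3.27 against 1.02, and *Ptpro*, a receptor phosphatase, at 2.64 against 0.825. *Kcnh8* did not differ in this direction in the deep nuclei, where it was at 2.39 in female and 2.78 in male nuclei, whereas *Kcnd2* was at 4.18 and 1.55 there. In other shallow nuclei *Kcnd2* was at 11.3 (female) and 1.02 (male), so that its difference was larger outside the members, and *Fbxl7* was at 4.49 and 4.41. The difference between these contrasts was not tested. Of the lists, mitochondrial transcripts were lower in male members (log2 −0.39, −0.47 to −0.31) and level in deep nuclei (0.0071, −0.087 to 0.10). The nodose list was lower in male members (−0.40), while its interval in deep nuclei included 0 (−0.088, −0.21 to 0.038). The jugular list was higher in male members (0.90), and it was likewise higher in the male nuclei of the macrophage rule, as given above. Ribosomal protein genes were higher in male nuclei of both groups (0.28 and 0.34).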

How the data were processed

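The authors deposited a matrix of UMI counts, made with Cell Ranger 7.1.0 on mm10 with an added transgene sequence and introns included. They kept barcodes by the debris score, genes and UMIs (above 1000) of DIEM, stated that possible doublets were removed, and combined both libraries by cellranger aggr to even out mapped reads. No doublet caller was run here. The library number of each barcode was matched to a sex by the number of nuclei that the study gives for each sex.

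Members and gene lists were chosen with earlier results of these data known. Nuclei were thinned without replacement to 1000 UMIs (seed 1), and genes needed at least 20 UMIs over both groups in each library, with 0.5 UMIs added to each sum before a ratio. Levels carry exact Poisson, shares Clopper-Pearson and ratios conditional binomial intervals at 95%, which cover counting error only. The profile of deep nuclei came from all of them, and other class profiles from nuclei below the marker level that met the rule of that class only, with 0.001 per 10000 added. Named genes were the 12 most and least enriched and the 3 most abundant of each list. Between the sexes they were the 6 at each end among genes with at least 40 UMIs. The deep nuclei gave those named for *Cntn5* and *Lingo2*, 10 for each. Genes of clone names were not named by this rule, and *Gm42418* and *Gm19951* were named after their values were seen. Some genes that the rule names are not reported here. Coordinates come from the GENCODE annotation of mm10. Python 3.11.15, numpy 2.4.6, pandas 2.3.3 and scipy 1.17.1 were used, and the code was tested on simulated data.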

Additional observations from a re-analysis of the deposited data

Results flagged for a closer look

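*Ntrk2*, the receptor gene for brain-derived neurotrophic factor, was higher in members than in deep nuclei in the female library (log2 0.44) and lower in the male library (log2 −0.35). It is listed because the effect went in opposite directions in the libraries. The difference was not tested, as there is 1 library of each sex.

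The 76 nuclei that reached the marker level with 4000 to 5000 UMIs entered no comparison between members and deep nuclei. In the classes by depth their lists lay between the members and the deep nuclei or near one of them, with the mitochondrial list at 132 (16 female nuclei) and 97.7 (60 male nuclei) per 10000 and the adhesion list at 369 and 305.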

How the results depend on the processing

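Of 448 list ratios under alternatives, 389 stayed within their counting interval, 58 moved and 1, the oligodendrocyte list of the male library, changed sign with another random thinning (−0.30, from 1.59, on 10 UMIs in members). Of 82 other values, 49 stayed and 33 moved. The share of members in the female and male library was 2.24% and 3.17% with a marker level of at least 40, 2.08% and 3.51% with at least 10 marker UMIs, and 2.32% and 2.46% under 3000 UMIs. It was 1.53% and 2.58% without *Cntn5*, 1.98% and 2.23% without *Lingo2*, and 2.35% and 3.58% without members of another class. Without thinning 296 genes were higher and 136 lower than in deep nuclei, without a minimum 631 and 362, and with at least 50 UMIs 17 and 3. The female library alone gave 193 and 195 and the male library alone 344 and 265. Deep nuclei of at least 10000 UMIs gave 84 higher genes, and leaving out nuclei of another class 74. With only the members nearest to the deep profile, an alternative chosen after seeing the data, 16 genes were higher and 17 lower, 5 lists were higher, male members had 25.5 fewer genes at 1000 UMIs than deep nuclei (−25.5), and 11 genes were higher in *Cntn5*-led members. Between the sexes, at least 50 UMIs gave 50 genes higher in male and 26 in female members, and no thinning 385 and 234. The voltage-gated list was lower in both libraries under 6 of 7 alternatives, and the injury, satellite glia and myelinating Schwann lists were higher under 6 of 7, the exception each time being the members nearest to the deep profile. Those members were picked on genes that include these lists, so this exception follows in part from the pick. The causes of the changes under the alternatives were not tested beyond what each alternative removes.

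No paired analysis was possible because each sex is 1 library. Leaving out a replicate was likewise not possible. Lists with few UMIs in members, such as the astrocyte list with 1 (female) and 3 (male), have intervals too wide to give a direction at this depth.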
